A study of Mus musculus with 2 samples.

Results

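The core circadian clock genes described here are Per1, Per2, Per3, Cry1, Cry2, Arntl, Clock, Npas2, Dbp and Tef, measured in the mouse adrenal gland. They were taken by gene symbol from a list of known clock genes, and all 10 were found among 55536 annotated genes, with 51 of 141767 annotated transcripts. Total RNA-seq, in which RNA is sequenced after most ribosomal RNA is removed, was made from adrenal glands of female mice of strain B6CASTF1/J at 2 months of age. This strain is a hybrid of B6 and CAST mice, and the reads of both parental alleles were counted together against the mm10 assembly. There was 1 group of 2 libraries, called replicate 1 and replicate 2, with no treatment, no altered gene and 300 ng of RNA in each. The labels call them biological replicates, but their library descriptions carry 1 animal number, while the biosample descriptions carry a different number for each. The difference between the replicates may therefore be partly technical, and no test between groups could be made. No hour of collection was found in the labels, so each value is a level at an unknown phase of the daily cycle.

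The circadian clock is a feedback loop of transcription that runs in nearly every mammalian cell. ARNTL (also called BMAL1) pairs with CLOCK or its relative NPAS2, binds E-box sequences and drives the Per and Cry genes, whose proteins return to the nucleus and inhibit that pair. The REV-ERB and ROR receptors act on Arntl through another element, the RORE, and DBP and TEF bind D-box sequences in output genes. The adrenal gland has its own clock, which is known to shape the daily rhythm of glucocorticoid release, and Per1 is also a known target of glucocorticoid and cyclic AMP signalling.

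The sequences through which this loop is known to act were looked up in the RefSeq promoter windows of assembly GRCm38.p6, the patch release of mm10. Each window of 300 bases runs from 250 before to 50 after an annotated start, and 9 of the 10 genes had at least 1 window, 14 in all. Per2 had none in the table and was not searched. The stretches below are those that hold a match. They are shown 5′ to 3′ on the strand of the gene, with the matched letters in capitals. The Per1 stretch (chr11:69098773-69098942, plus strand) holds an E-box and a D-box. The Per3 stretch (chr4:151044806-151044880, minus strand) holds a pair of D-boxes. The Cry1 stretch (chr10:85185099-85185143, minus strand) holds an E-prime box, a variant of the E-box, and an E-box. The Cry2 stretch (chr2:92434218-92434247, minus strand) holds an E-prime box. The Arntl stretch (chr7:113207530-113207558, plus strand) holds a RORE and lies inside exon 1 of Arntl-201. The upstream Tef stretch (chr15:81802534-81802563, plus strand) lies inside exon 1 of Tef-202, and the downstream Tef stretch (chr15:81811264-81811293, plus strand) lies before the start of Tef-201.
Per1: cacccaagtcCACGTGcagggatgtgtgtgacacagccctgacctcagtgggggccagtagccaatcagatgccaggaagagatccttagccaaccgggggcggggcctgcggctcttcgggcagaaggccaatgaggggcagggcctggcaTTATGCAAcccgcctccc
Per3: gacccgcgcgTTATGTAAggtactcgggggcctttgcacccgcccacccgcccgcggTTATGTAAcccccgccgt
Cry1: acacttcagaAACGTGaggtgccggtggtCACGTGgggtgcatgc
Cry2: acacatggtgggAACGTGagggggcggagc
Arntl: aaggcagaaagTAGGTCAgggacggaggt
Tef, upstream: gtgctgtggctcCACGTGctgcagctggca
Tef, downstream: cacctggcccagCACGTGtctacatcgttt

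The letters searched, on both strands, were CACGTG for the E-box and CACGTT for the E-prime box. For the D-box they were TTATGTAA, TTACGTAA or TTATGCAA, for the RORE TAGGTCA or TGGGTCA, and for the cyclic AMP response element TGACGTCA. No match overlapped a match of another motif. The E-box was in 4 of the 14 windows, those of Per1, Cry1 and both starts of Tef, and in 7.15% of all 32851 windows in the table. Its distance before the start was 166 bases in Per1, 60 in Cry1, and 127 and 138 at the starts of Tef. The E-prime box was in 2 of the 14 windows, 79 bases before the Cry1 start and 166 before the Cry2 start, and in 4.68% of all windows. The D-box was in 2 of the 14, 24 bases before the Per1 start and 205 and 158 before the Per3 start, and in 1.78% of all windows. The RORE was in 1 of the 14, 30 bases after an Arntl start, and in 6.45% of all windows. The cyclic AMP response element was in none of the 14 windows and in 1.79% of all windows. A match is a description of the letters in these windows only, and binding was not measured.

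The libraries held 34203664 counts on annotated genes in replicate 1 and 35959484 in replicate 2, with 13254 and 13316 genes at 1 TPM or more. TPM, a relative transcript number with a fixed total, divides by transcript length and so allows levels of different genes to be compared. Values are from the alignment-based quantification unless the index-based one, made separately from the same reads, is named. RNA of the 7SL genes took 33.1% of TPM in replicate 1 and 20.4% in replicate 2, so every other TPM was set against a different remainder. Ratios between replicates therefore use counts scaled by edgeR's trimmed mean of M-values (TMM). Their 95% intervals are exact Clopper-Pearson intervals of counting error only, and sequenced fragments are not independent molecules. They leave out variation between animals and between library preparations. Over the 12171 genes with a mean of at least 100 counts, the median log2 ratio of replicate 2 over replicate 1 was -0.01, and 90% of the genes lay within 1.38-fold.

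All 10 clock genes had counts in both libraries, over a 19.0-fold range of mean TPM, and Per3 in replicate 1 was the 1 value under 1 TPM. From the highest mean to the lowest the order was Per1, Clock, Per2, Arntl, Dbp, Cry2, Tef, Npas2, Cry1 and Per3. Of the 9 pairs of neighbours in that order, 5 had ranges of TPM that overlapped. These were the steps between Clock and Per2, Per2 and Arntl, Arntl and Dbp, Dbp and Cry2, and Cry2 and Tef. The Per1 values lay above both Clock values, and Tef, Npas2, Cry1 and Per3 stood apart from one another. The index-based quantification gave the same order from Arntl down, but put Clock first, then Per2, then Per1.

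**Figure D1:**
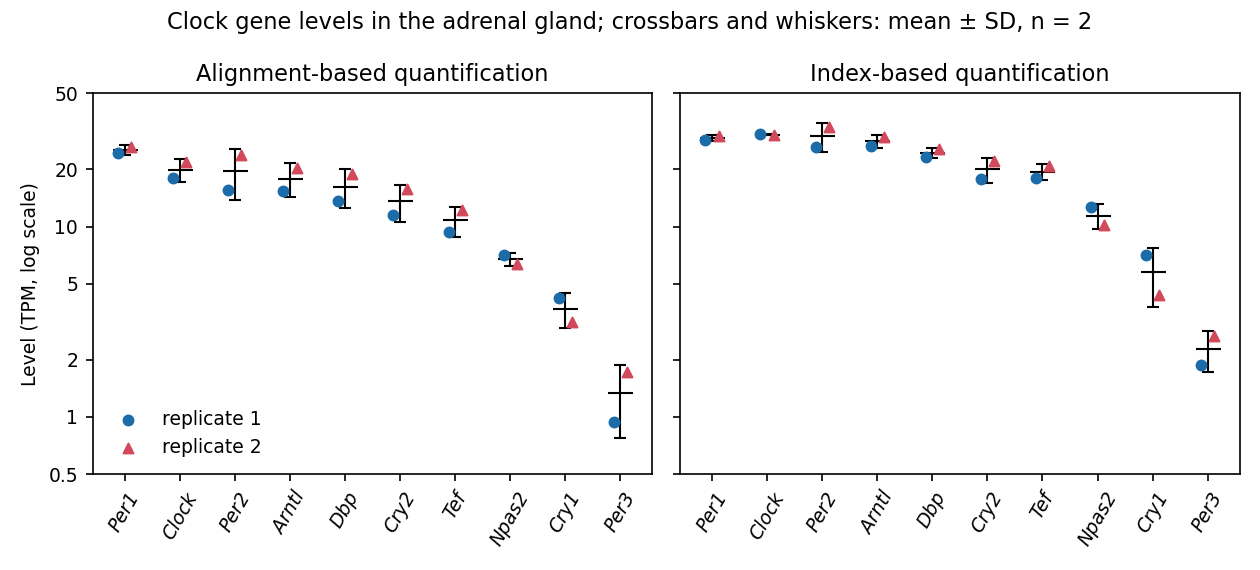
Level of each clock gene in TPM on a log axis, for replicate 1 and replicate 2, in the alignment-based and the index-based quantification; crossbars and whiskers are the mean ± SD (n = 2). Per1 is highest on the alignment-based side at 25.3 ± 1.45 TPM, and Per3 is lowest on both.

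Arntl, Clock and Npas2 encode the activators. Arntl (ENSMUSG00000055116.8, mm10 chr7:113207465-113314126, plus strand) had 15.3 TPM in replicate 1 and 20.4 TPM in replicate 2, a mean of 17.9 ± 3.59 TPM (SD, n = 2), from 1478 and 1832 counts. Its scaled count was 1.23-fold higher in replicate 2 (95% counting interval 1.14 to 1.31). Replicate 2 was thus the higher library for Arntl on both scales, and 25.1% of genes differed between the replicates by at least as much. Clock (ENSMUSG00000029238.11, chr5:76209868-76304792, minus strand) encodes the usual partner of ARNTL. It had 18.0 TPM and 21.8 TPM in replicates 1 and 2 (19.9 ± 2.69 TPM, SD, n = 2), from 4618 and 4965 counts. Its scaled counts lay close together, 1.06-fold higher in replicate 2 (interval 1.02 to 1.11). Npas2 (ENSMUSG00000026077.15, chr1:39193731-39363236, plus strand), the relative of Clock, had 7.08 TPM and 6.35 TPM (6.71 ± 0.516 TPM, SD, n = 2), from 763 and 743 counts. Its scaled count was 1.04-fold higher in replicate 1 with an interval that includes no difference (0.937 to 1.15), and 81.6% of genes differed by at least as much. Scaling by the ERCC spike-ins instead, which raised the median of all genes by 0.20 on the log2 scale, put Npas2 higher in replicate 2 (log2 ratio 0.15).

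Within a library, where no scaling is needed, Clock exceeded Npas2 in both replicates. The ratio of their TPM was 2.55 in replicate 1 and 3.44 in replicate 2, a mean log2 ratio of 1.57 ± 0.31 (SD, n = 2). The index-based quantification gave 2.42 and 2.98. Clock was therefore the more abundant of these partner genes in each library and in each quantification.

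Per1, Per2 and Per3 encode the PERIOD proteins, which carry the inhibitory complex. Per1 (ENSMUSG00000020893.17, chr11:69095217-69109960, plus strand) had 24.3 TPM in replicate 1 and 26.3 TPM in replicate 2 (25.3 ± 1.45 TPM, SD, n = 2), from 2636 and 2829 counts. Its scaled counts were 1.06-fold apart (interval 1.01 to 1.12), a smaller gap than that of 71.7% of genes. Per2 (ENSMUSG00000055866.9, chr1:91415982-91459324, minus strand) had 15.5 TPM and 23.8 TPM (19.7 ± 5.86 TPM, SD, n = 2), from 3114 and 4511 counts. It differed far more between the replicates than Per1 did. Its scaled count was 1.43-fold higher in replicate 2 (interval 1.37 to 1.5), and 7.66% of genes differed by at least as much. The authors' deposited TPM intervals for Per2, 14.8 to 16.5 in replicate 1 and 22.8 to 24.6 in replicate 2, did not overlap, nor did those of Per3, Cry2, Arntl, Clock and Dbp. These intervals are in TPM, which is not rescaled between the libraries. Per3 (ENSMUSG00000028957.12, chr4:151003652-151044665, minus strand), the member of the family least needed for rhythms, had 0.94 TPM and 1.72 TPM (1.33 ± 0.552 TPM, SD, n = 2), from 165 and 280 counts. Its scaled count was 1.68-fold higher in replicate 2 (interval 1.38 to 2.05), with 2.95% of genes as far apart. It was the lowest clock gene in each library, and its low counts give the widest interval of the 10.

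The order of Per1 and Per2 depended on the quantification. The TPM ratio of Per1 over Per2 was 1.56 in replicate 1 and 1.10 in replicate 2, and in the index-based quantification 1.09 and 0.898. Much of the Per1 level sat on Per1-204, an incomplete transcript model of 496 bases. It took 32.2% of Per1 TPM in replicate 1 and 27.1% in replicate 2, from 4.11% and 3.30% of Per1 counts. In the index-based quantification Per1-204 took 0% and 7.80% of Per1 TPM. With TPM summed only over transcript models that the annotation does not mark as incomplete, an alternative chosen after seeing the data, Per1 had 16.4 TPM and 19.2 TPM. By mean, Per1 then came after Clock, Per2 and Arntl. In replicate 1 it still lay above Per2 (15.5 TPM) and Arntl (15.3 TPM), and in replicate 2 below both (23.8 TPM and 20.4 TPM). The ratio of Per3 over Per2 was 0.061 in replicate 1 and 0.072 in replicate 2, and the index-based values were 0.072 and 0.080.

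Cry1 and Cry2 encode the cryptochromes, the repressor partners of the PERIOD proteins, and they differed between the replicates in opposite directions. Cry1 (ENSMUSG00000020038.10, chr10:85131700-85185064, minus strand) had 4.23 TPM in replicate 1 and 3.16 TPM in replicate 2 (3.69 ± 0.757 TPM, SD, n = 2), from 433 and 294 counts. Its scaled count was 1.49-fold higher in replicate 1 (interval 1.28 to 1.73), with 5.96% of genes as far apart. The deposited TPM intervals of Cry1, 4.04 to 5.87 and 2.98 to 4.77, overlapped, as did those of Per1, Npas2 and Tef. Cry2 (ENSMUSG00000068742.11, chr2:92403646-92434043, minus strand) had 11.4 TPM and 15.7 TPM (13.6 ± 2.98 TPM, SD, n = 2), from 1380 and 1733 counts. It was 1.24-fold higher in replicate 2 (interval 1.16 to 1.33), with 22.7% of genes as far apart. Within a library Cry1 stood at 0.369 of Cry2 in replicate 1 and at 0.202 in replicate 2, a mean log2 ratio of -1.87 ± 0.62 (SD, n = 2). The index-based quantification gave 0.399 and 0.197. Cry2 was the more abundant cryptochrome in both libraries, and this ratio moved by -0.87 on the log2 scale from replicate 1 to replicate 2, the widest shift of the 7 ratios between clock genes that were formed.

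Dbp and Tef encode related transcription factors of the PAR bZIP family, which carry the rhythm to output genes. Dbp (ENSMUSG00000059824.12, chr7:45705088-45710203, plus strand), a direct and strongly rhythmic target of CLOCK and ARNTL in many tissues, had 13.6 TPM in replicate 1 and 18.9 TPM in replicate 2 (16.2 ± 3.75 TPM, SD, n = 2), from 700 and 886 counts. It was 1.25-fold higher in replicate 2 (interval 1.13 to 1.39), with 21.4% of genes as far apart. Tef (ENSMUSG00000022389.15, chr15:81802421-81826863, plus strand) had 9.39 TPM and 12.2 TPM (10.8 ± 1.95 TPM, SD, n = 2), from 1006 and 1111 counts. Its scaled counts were 1.09-fold apart (interval 1.00 to 1.19), so the gap between the TPM values was wider than that between the scaled counts. The ratio of Dbp over Tef was 1.44 and 1.55, with 1.29 and 1.23 in the index-based quantification. Dbp thus stood above Tef in both libraries in both quantifications.

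Dbp and Arntl peak at different hours in tissues where their rhythms are known, so their ratio was taken within each library. Dbp stood at 0.884 of Arntl in replicate 1 and at 0.924 in replicate 2, a mean log2 ratio of -0.15 ± 0.05 (SD, n = 2), and the index-based values were 0.876 and 0.860. The ratio of Per2 over Arntl was 1.01 in replicate 1 and 1.17 in replicate 2, a mean log2 ratio of 0.12 ± 0.14 (SD, n = 2). In both libraries Arntl, Per2 and Dbp lay close to one another in level. No phase was assigned from these ratios.

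**Figure D2:**
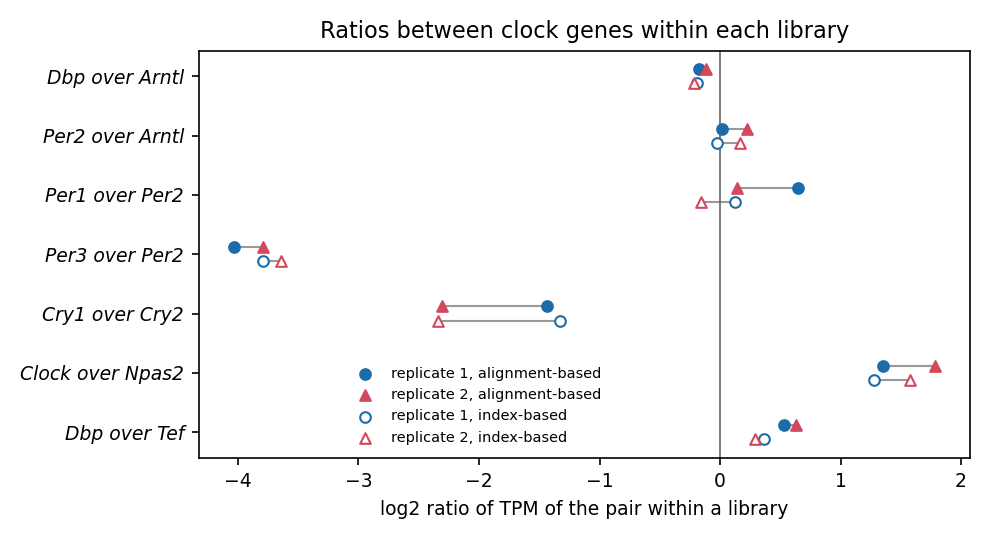
Log2 ratio of TPM of paired clock genes within each library, for both replicates and both quantifications; 0 is equal level. Per3 over Per2 and Cry1 over Cry2 lie below 0 and Clock over Npas2 above 0 at every point, while Per1 over Per2 and Per2 over Arntl lie on both sides of 0 in the index-based quantification.

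Between the replicates, 8 of the 10 clock genes had a higher scaled count in replicate 2, against 47.5% of the 12171 genes, and Cry1 and Npas2 were higher in replicate 1. Per3 alone, 1 of the 10, was over 1.5-fold apart, against 5.68% of genes in either direction, 2.43% higher in replicate 2 and 3.25% higher in replicate 1. None of the 10 was over 2-fold apart, against 1.37% of genes, 0.583% higher in replicate 2 and 0.789% higher in replicate 1. Cry1 at 1.49-fold and Per2 at 1.43-fold lay just inside 1.5-fold. A share of 1 in 10 cannot be read as different from that background. The median log2 ratio of the 10 genes was 0.21, beside -0.01 for all genes. The genes share the same libraries, and a single pair of libraries gives no measure of how often clock genes differ this way between animals. Another scaling factor moves all genes alike and cannot change where a gene lies relative to their median. With the index-based counts or TPM, each of which could change it, the same 8 lay above that median, Per1 by 0.002 on the log2 scale by TPM. A prior of 5 counts could hardly change it at the counts of these genes. Summed over the 10 genes, TPM was 120 in replicate 1 and 150 in replicate 2. These sums are not rescaled between the libraries, in which all nuclear protein-coding genes together took 31.7% and 35.6% of TPM.

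**Figure D3:**
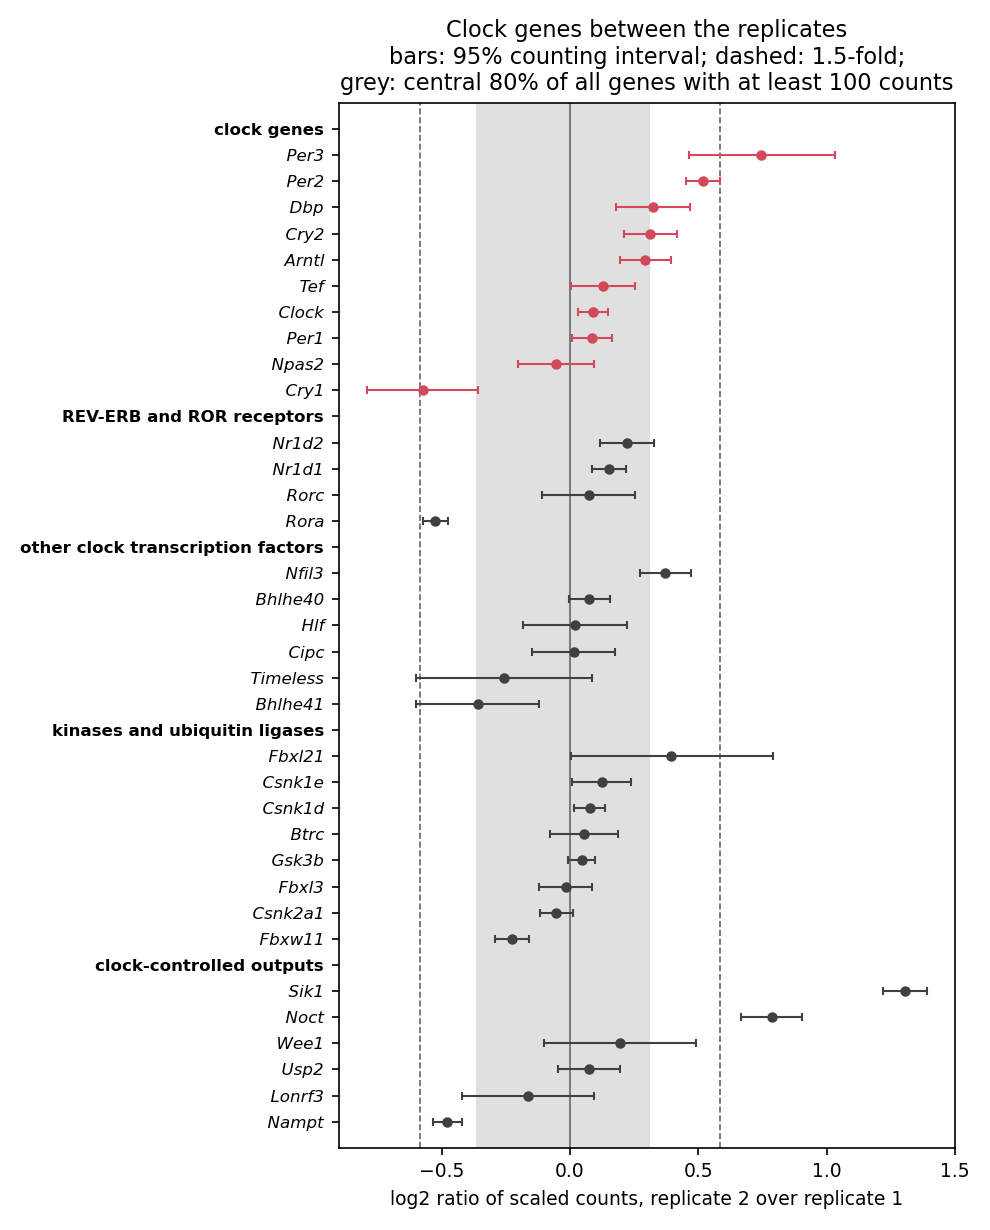
Log2 ratio of TMM-scaled counts, replicate 2 over replicate 1, for the clock genes and for other clock-related genes with a mean of at least 100 counts; bars are 95% counting intervals, dashed lines mark 1.5-fold, and the grey band holds the central 80% of all such genes. Of the clock genes, Per3, Per2 and, narrowly, Dbp and Cry2 lie right of the band and Cry1 left of it. Of the other genes, Sik1 and Noct lie farthest right, Nfil3 and Fbxl21 also lie right of the band, and Rora and Nampt left.

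Markers of other cell types also differed between the libraries. In bulk RNA, fewer cells of a type and less RNA per cell cannot be told apart. All 5 steroid-making cortex markers were abundant in both libraries (summed TPM 15532 in replicate 1 and 17901 in replicate 2), as were the 5 chromaffin markers of the medulla (1814 and 1481). None of these was at 0. All 5 brown adipocyte markers were over 1.5-fold higher in replicate 2 (summed TPM 565 and 1148), and 2 of 3 erythroid markers were too (714 and 1421). Those 2 were the paralogs Hba-a1 and Hba-a2. Their counts are fractional, as for reads divided between genes, so they are not 2 independent readings. All 4 liver markers were over 1.5-fold higher in replicate 1 (168 and 107). Over the 12171 genes, 2.43% were over 1.5-fold higher in replicate 2 and 3.25% in replicate 1. The marker lists were chosen with earlier results of these data known, so their counts beside these shares are a description only. The sums are in TPM, which is not rescaled between the libraries. Of the 4 kidney markers, 3 were at 0 in replicate 2 (summed TPM 19.6 and 0.18), and Kap had 350 counts in replicate 1 and 0 in replicate 2. General adipocyte markers (1745 and 1968) and endothelial markers (94.99 and 104) differed less, with none over 1.5-fold. The part of these differences in the ratios of Per2, Per3, Cry1 and the other clock genes was not tested.

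Other genes of the clock pathway, from lists chosen with earlier results of these data known, mostly lay near equality. Of the REV-ERB and ROR receptors, 4 of 5 had at least 100 counts on average, 3 higher in replicate 2 and 1 in replicate 1, none over 1.5-fold, with a median log2 ratio of 0.11. Nr1d1, which encodes the REV-ERB alpha repressor of Arntl, had 39.4 TPM and 46.9 TPM, above every one of the 10 clock genes. Rora, an activator on the same element, had 40.3 TPM and 32.7 TPM and a scaled count 1.44-fold higher in replicate 1, opposite in direction to Arntl. Of the other clock transcription factors, 6 of 8 had enough counts, 4 higher in replicate 2 and 2 in replicate 1, none over 1.5-fold (median 0.02). Their most abundant members were Bhlhe40, a repressor that competes at E-boxes, with 28.3 TPM and 31.8 TPM, and Nfil3, a repressor at D-boxes, with 21.3 TPM and 29.5 TPM. In both libraries Nfil3 thus exceeded Dbp and Tef, the activators of the D-box. Of the 8 kinases and ubiquitin ligases that act on PER and CRY proteins, 5 were higher in replicate 2 and 3 in replicate 1, none over 1.5-fold (median 0.05). Csnk1d, a casein kinase that phosphorylates PER, had 35.7 TPM and 43.6 TPM. Fbxw11, a ubiquitin ligase subunit, had 37.6 TPM and 29.5 TPM.

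Of the 6 output genes, 4 were higher in replicate 2 and 2 in replicate 1 (median 0.13). Against 2.43% of the 12171 genes, 2 of the 6 were over 1.5-fold higher in replicate 2. These were Sik1, a kinase, with 10.7 TPM and 26.7 TPM and a scaled count 2.47-fold higher in replicate 2, and Noct, which encodes nocturnin, with 8.31 TPM and 15.6 TPM and 1.73-fold. Nampt, the rate-limiting enzyme of NAD salvage, was the most abundant, with 46.9 TPM and 45.1 TPM. Its scaled count was 1.39-fold higher in replicate 1 (interval 1.34 to 1.45), with 9.23% of genes as far apart. Genes that respond to signals known to act on Per1 were read from 2 further lists, chosen in the same way. Of 6 immediate early genes, 5 had enough counts, 3 higher in replicate 2 and 2 in replicate 1. The 3 were all over 1.5-fold higher in replicate 2, against the same 2.43% of genes. They were Nr4a1, Junb and Fosb, by 2.85-fold, 1.84-fold and 1.59-fold. The other 2, Jun and Egr1, were 1.37-fold and 1.28-fold higher in replicate 1. The remaining gene, Fos, named after its values were seen, was 1.95-fold higher in replicate 1 (interval 1.44 to 2.69), from 126 and 65 counts. Nr4a1, an orphan nuclear receptor induced by ACTH in the cortex, had 64.8 TPM and 194 TPM, while Jun, the next most abundant, had 61.1 TPM and 47.6 TPM. None of the 5 glucocorticoid-induced genes was over 1.5-fold apart, with 2 higher in replicate 2 and 3 in replicate 1 (median -0.10). The most abundant of these were Mt2, a metallothionein, with 64.3 TPM and 70.0 TPM, and Tsc22d3, which encodes GILZ, with 52.7 TPM and 47.0 TPM. Per1 itself differed by 1.06-fold. Neither kind of signal was measured, and the part of either in the Per1 level was not tested.

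The 51 transcripts of the clock genes comprise 27 protein-coding models, 12 with a retained intron, 10 processed transcripts and 2 marked for nonsense-mediated decay. Per2 was assigned wholly to Per2-201 in both libraries and both quantifications. Cry1-201 took 100% and 95.8% of Cry1 TPM in replicates 1 and 2. Per3-201 took 67.1% and 65.2% of Per3, and Dbp-201 took 56.5% and 52.3% of Dbp, with Dbp-204, a shorter coding model, at 24.0% and 35.2%. These leading models were the same in both quantifications, though Dbp-204 held only 6.38% and 10.9% in the index-based one. Per1-201 led Per1 with 57.5% and 55.9%. In the index-based quantification it took 74.0% and 30.9%, with Per1-206, of the same 3873 coding bases but another start, at 5.31% and 23.6%. Npas2-201 took 71.9% and 84.2% of Npas2, and the rest was on Npas2-203, an incomplete model of 484 bases with 3.51% and 1.72% of Npas2 counts.

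Cry2, Arntl and Clock each had a minor coding transcript with a larger share in replicate 2. Cry2-201 led Cry2 with 79.7% and 71.9%, and Cry2-202, which has the same 1776 coding bases and is shorter in all, took 13.7% and 23.6% (13.0% and 30.6% in the index-based quantification). Arntl-201 led Arntl with 84.5% and 71.1%. Arntl-206, which starts 27158 bases downstream, took 6.50% and 18.8% (index-based 13.8% and 26.8%). Clock was spread over several models. Clock-205 took 38.9% and 26.9% and Clock-201, with the same 2565 coding bases, took 34.7% and 39.1%. Clock-204, which starts 30780 bases downstream, took 13.3% and 20.4% (index-based 16.1% and 26.8%). The shares of Cry2-202, Arntl-206 and Clock-204 were larger in replicate 2 in both quantifications. So were those of Dbp-204, Tef-201 and Per1-202 (9.97% and 15.4%, index-based 13.8% and 22.1%). Shares within a gene have a fixed sum, so others fell. Those of Cry2-201, Arntl-201, Clock-205, Dbp-201, Tef-202 and Per1-201 were larger in replicate 1 in both quantifications. How many of all genes have transcripts that differ in this way was not computed. The share of Clock-201 was larger in replicate 2 only in the alignment-based quantification (index-based 52.7% and 44.6%).

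**Figure D4:**
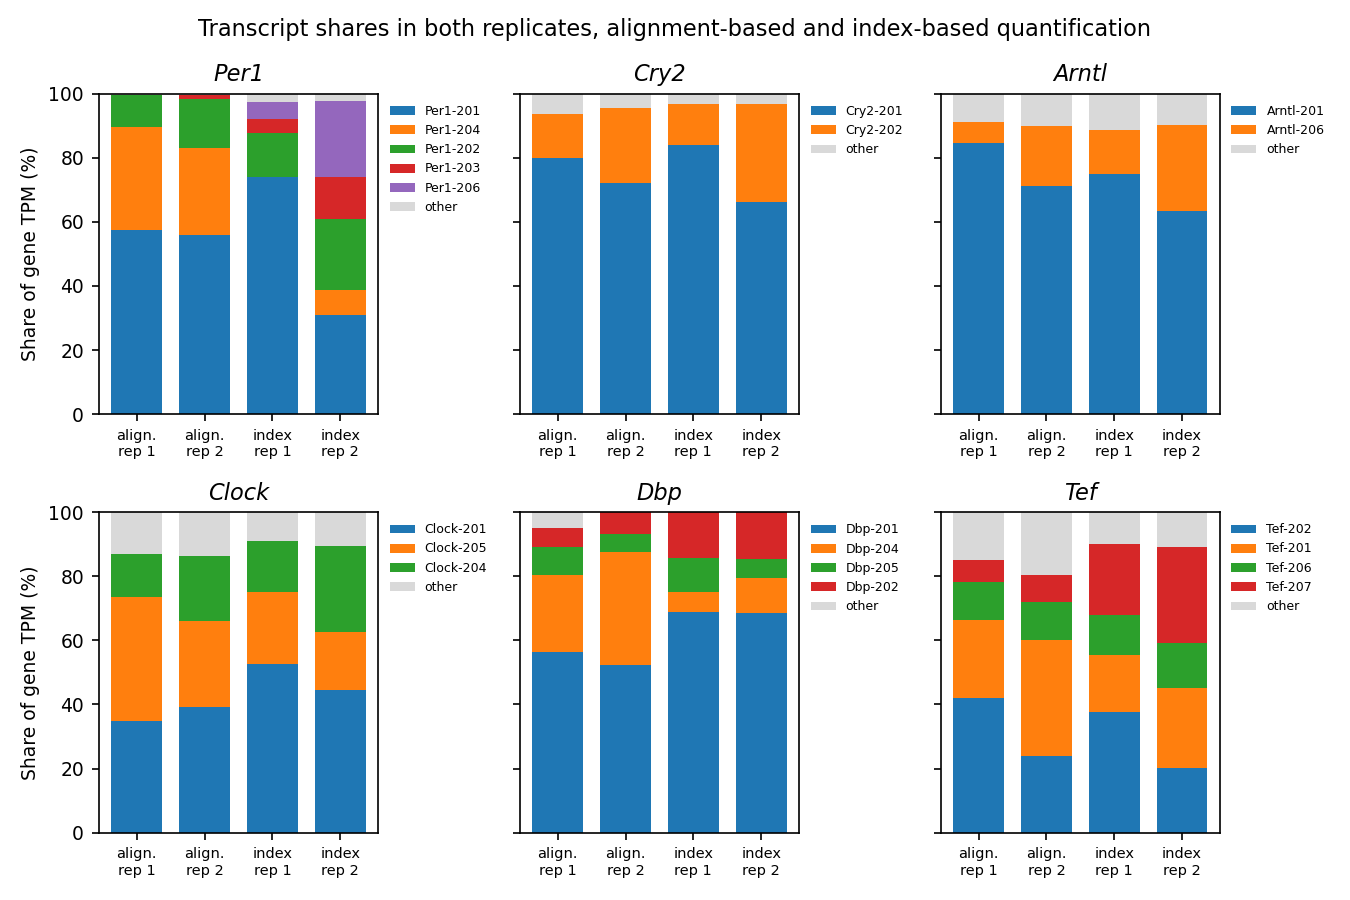
Share of gene TPM by transcript, in percent, for Per1, Cry2, Arntl, Clock, Dbp and Tef, in both replicates of the alignment-based (align.) and index-based (index) quantification; grey is the sum of other transcripts. Cry2-202, Arntl-206, Clock-204, Dbp-204, Tef-201 and Per1-202 are larger in replicate 2 in both quantifications, and Per1 is divided differently in each.

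Tef transcript models fall into 3 groups by their start. The upstream and downstream Tef stretches printed above, each with an E-box match, lie at the first and the next of these groups, the upstream match inside exon 1 of Tef-202. Transcripts of the upstream start, led by Tef-202 (855 coding bases), took 50.4% of Tef TPM in replicate 1 and 33.6% in replicate 2. Those that begin 8625 to 9738 bases downstream, led by Tef-201 (903 coding bases), took 42.7% and 53.9%. Part of this sat on incomplete models of 477 and 399 bases, Tef-206 and Tef-210. Tef-206 took 11.8% and 11.7% from 1.45% and 1.60% of Tef counts, and Tef-210 6.46% and 6.01% from 0.63% and 0.65%. The upstream start was thus the larger in replicate 1 and the smaller in replicate 2. The index-based quantification gave 47.8% and 31.2% upstream and 30.2% and 38.8% downstream, in the same directions. Tef-202 alone took 42.0% and 24.0%, from 594 and 415 counts, and Tef-201 took 24.4% and 36.2%, from 320 and 578 counts. In the index-based quantification Tef-207, a model with a retained intron, took 21.9% and 29.98% and was the leading Tef transcript of replicate 2. The leading transcript differed between the replicates in 2 of the 10 clock genes, Clock and Tef, against 15.0% of 10579 nuclear protein-coding genes. In none of the 10 did it change in the same way in both quantifications, against 2.43% of those genes. Nothing particular to the clock genes is read from these shares.

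**Figure D5:**
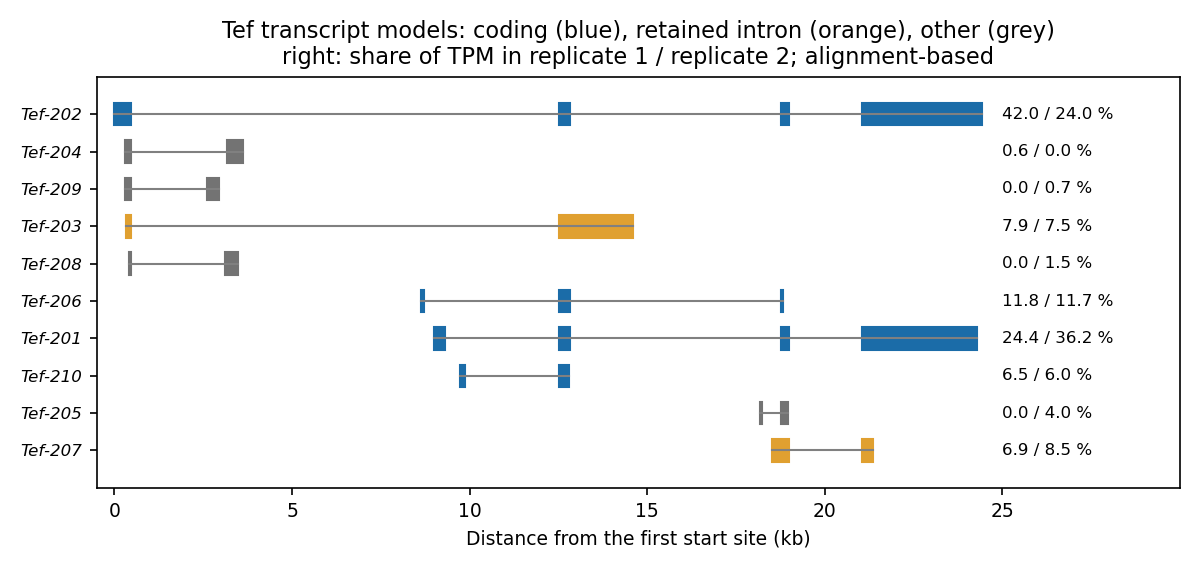
Transcripts of Tef drawn to scale by distance from the first annotated start, with the share of Tef TPM of each in replicates 1 and 2. Tef-202 at the upstream start has 42.0% and 24.0%, and Tef-201 at the downstream start has 24.4% and 36.2%.

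Retained intron models took a mean of 28.6% of TPM in Per3, 15.4% in Tef, 13.5% in Dbp, 11.8% in Clock, 7.52% in Arntl and 2.06% in Cry1. The median over 6959 protein-coding genes with such a model was 7.97%, with quartiles at 3.02% and 18.7%, and on this quantification Per3 alone lay above the upper quartile. The Per3 share rests on few counts, 18.01 and 24.89 on Per3-205 and 12.1 and 20.75 on Per3-202 in replicates 1 and 2. In the index-based one, for which no median over genes was computed, the shares in replicates 1 and 2 were larger in Tef (31.3% and 37.4%) and Dbp (24.9% and 20.5%), and were 35.8% and 30.9% in Per3. Some clock genes overlap other genes. The 3′ end of Dbp overlaps Sphk2 on the opposite strand, which had 1333 and 1377 counts. Per3 lies within Camta1 on the same strand (236 and 256 counts), and the processed pseudogene Ube2n-ps1 lies within Clock on the same strand (579 and 772 counts). The library kit was directional, but how strand was set in counting is not stated in the sources used here. How far reads of these neighbours entered the counts of Dbp, Per3 and Clock was not tested.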

How the data were processed

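Values came from 2 libraries of 1 group. Per the deposited file list, reads were set against mm10 with GENCODE M21, by transcriptome alignment for 1 pair of gene and transcript tables and by a transcript index for another transcript table. Program, version, strand setting and filters are not stated in the sources used here. Each deposited gene or transcript entry has an expected count (an estimated count in the index-based table) and a TPM. The alignment-based transcript table, as deposited, adds the percent of its gene's TPM. The authors' gene table also bounds each TPM from below and above, treated as signal, at a level not stated.

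Genes were matched by identifier. Here, expected counts were scaled with edgeR 4.0.16 (TMM factors 1.02 and 0.981, R 4.3.3), with a prior of 0.5 counts. Rows that name no gene, spike-ins included, stayed out of library sizes. Intervals used scipy 1.17.1 on counts rounded to whole numbers. Alternatives used DESeq2 1.42.0 size factors, total and ERCC counts, TPM, the index-based counts, other priors and filters. The steps were tested on simulated data. The members and lists were chosen with earlier results of these data known. All 10 members are named. Of each other clock or signalling list the 2 most abundant genes, and those over 1.5-fold apart with a mean of at least 100 counts, are named. Marker lists are given by their sums. Of transcripts, the leading one and those with at least 20% of a gene are named. Per1-202, Per1-206, Tef-206, Tef-210, Fbxl21, Fos and the overlapping genes were added after their values were seen.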

Additional observations from a re-analysis of the deposited data

How the results depend on the processing

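With 2 libraries the spread is poorly known, and depth limits Per3 and Cry1 most. No paired analysis was possible because the labels give 1 group. The number of clock genes over 1.5-fold apart, 1 by TMM, was 2 by total counts, by ERCC counts and by TPM, and 0 at a fold of 2. The gene beside Per3 was not the same. It was Cry1 by total counts (log2 ratio -0.63), and Per2 by ERCC counts (0.72) and by TPM (0.62). The median log2 ratio of the clock genes, 0.21 by TMM, was 0.41 by ERCC counts, 0.39 by TPM and between 0.15 and 0.23 elsewhere. ERCC and TPM moved the median of all genes by 0.20 and 0.13.

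Index-based mean log2 ratios within a library were -0.20 for Dbp over Arntl, -3.72 for Per3 over Per2 and 0.33 for Dbp over Tef. That of Per1 over Per2 was -0.016 (reversed by mean and in replicate 2, but not in replicate 1). From expected counts, which are not divided by length, they were -1.06 for Dbp over Arntl, 1.19 for Per2 over Arntl, -0.46 for Per1 over Per2 (reversed), -4.12 for Per3 over Per2, 2.67 for Clock over Npas2 and -0.42 for Dbp over Tef (reversed). Without incomplete models, an alternative added after seeing the data, the mean log2 ratios were 1.93 for Clock over Npas2 and 0.87 for Dbp over Tef. That of Per1 over Per2 was -0.11 (reversed by mean and in replicate 2, but not in replicate 1). The fall of Per1 there is by construction.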
